A study of Mus musculus with 16 samples.

Results

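Neurons in which vasopressin (*Avp*) and oxytocin (*Oxt*) mRNA made up a large part of the transcriptome were taken from single-cell libraries of 16 female mice, made from hypothalamus together with the preoptic area (POA). The cells were selected on their own UMI counts: a neuron was counted here as an Avp/Oxt neuron when *Avp* plus *Oxt* held at least 5% of its unique molecular identifiers (UMIs, each marking 1 captured mRNA molecule) and at least 20 UMIs, and when it had 0 UMIs of *Vipr2* and *Prokr2*, receptor genes of the suprachiasmatic nucleus. Neurons were the cells with UMIs of at least 3 of 8 neuronal genes (*Snap25*, *Syt1*, *Stmn2*, *Snhg11*, *Meg3*, *Celf4*, *Map1b* and *Ndrg4*). The rule found 137 cells among 9679 neurons and 55675 cells kept, which was 1.42% of the neurons and 0.246% of the cells. *Avp* had more UMIs than *Oxt* in 107 of these neurons (Avp-led), and *Oxt* had more in 30 (Oxt-led, 21.9%). A further 6 neurons met both thresholds but had a *Vipr2* or *Prokr2* UMI and were left out.

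Vasopressin and oxytocin are sister peptides whose genes lie next to each other. Magnocellular neurons of the paraventricular and supraoptic nuclei make them in large amounts, cut them out of longer precursors in dense-core vesicles and release them into the blood from the posterior pituitary. Vasopressin acts on the kidney to retain water, and oxytocin acts in birth and milk ejection. Smaller parvocellular neurons of the paraventricular nucleus, cells of the suprachiasmatic nucleus and scattered preoptic and accessory cells also make one or the other peptide.

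The mice were on a CD-1;129P2 mixed background and 8 to 10 weeks old at the start. They received 28 daily subcutaneous injections of tamoxifen (0.1 mg/kg) or of corn oil, the vehicle. *Esr1* cKO mice carried the floxed *Esr1* allele *Esr1*tm1Sakh and the bacterial artificial chromosome transgene Tg(*Nkx2-1-Cre*)2Sand, so that the estrogen receptor alpha gene is deleted in cells with a history of *Nkx2-1* expression. The mice labelled wild-type were *Cre*-negative littermates. There were 3 wild-type mice under oil, 5 wild-type mice under tamoxifen, 4 *Esr1* cKO mice under oil and 4 *Esr1* cKO mice under tamoxifen, with 1 Drop-seq library each. The libraries held 2634250 to 8038160 UMIs (median 5263140), and 1746 to 5568 cells per library were kept. The Avp/Oxt neurons numbered 2, 3 and 11 in the wild-type oil mice (replicates 1 to 3), 11, 19, 4, 14 and 6 in the wild-type tamoxifen mice (replicates 1 to 5), 6, 4, 8 and 12 in the *Esr1* cKO oil mice and 12, 4, 15 and 6 in the *Esr1* cKO tamoxifen mice (replicates 1 to 4 in both). Tests on genes used the 11 libraries with at least 5 such neurons, which left replicate 3 as the only wild-type oil mouse.

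Libraries and barcodes stood apart in a pair of ways that bear on these cells. The first principal component was taken over log2 levels summed over the neurons of each of the 16 libraries (12404 genes). It held 48.9% of the variance. The other 14 libraries scored from -32.2 to -4.43 on it, against 102.7 for replicate 3 of the wild-type oil group and 99.4 for replicate 3 of the *Esr1* cKO tamoxifen group. Both listed no barcode with fewer than 100 genes, against 20 in the others, and neither listed 741 of the 19912 gene symbols that all 14 others listed. In addition, 1717 kept cells (3.08%) had a barcode that was kept in more than 1 library. Each of the 6 pairs among wild-type tamoxifen replicates 4 and 5, *Esr1* cKO oil replicate 4 and *Esr1* cKO tamoxifen replicate 4 shared 303 to 359 barcodes, wild-type oil replicate 2 shared 10 to 42 with each of them, and the other 110 pairs shared at most 10 (median 1). Of the 137 Avp/Oxt neurons, 10 carried such a barcode, all of them Avp-led and 9 of them in those 4 libraries. A single barcode gave an Avp/Oxt neuron of 9980 UMIs in wild-type oil replicate 2 and of 487, 591 and 761 UMIs in 3 other libraries. Without cells of shared barcodes, 127 Avp/Oxt neurons remained, and 131 with only the deepest copy of each barcode.

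*Oxt* and *Avp* lie on chromosome 2 in opposite directions, with their 3′ ends facing each other and 3565 bases between them (GRCm38, the build mm10; *Oxt* 2:130576173-130577054 on the plus strand, ENSMUSG00000027301.7, and *Avp* 2:130580620-130582554 on the minus strand, ENSMUSG00000037727.6). Each gene has 3 exons. The messages of both are short, 577 nt for Avp-201 and 537 nt for Oxt-201, and both encode a carrier protein, neurophysin, behind the peptide. The longest identical stretch of the 2 messages is 127 nt of coding sequence that spans the junction of exons 1 and 2. It is shown because it is the part in which reads of one gene cannot be told from reads of the other, and with it both messages share 78 windows of 50 nt, 14.8% of those of *Avp* and 15.98% of those of *Oxt*. How reads that map to both genes were handled is not given in the sources used here.
shared stretch of Avp-201 (nt 144 to 270) and Oxt-201 (nt 156 to 282): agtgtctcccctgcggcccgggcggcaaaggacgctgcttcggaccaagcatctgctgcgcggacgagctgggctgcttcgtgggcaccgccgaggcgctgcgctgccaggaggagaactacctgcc

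The 250 bases before a RefSeq start of each gene are shown next (the RefSeq starts used differ from the gene ends given above, which are those of GENCODE), since the study asked about a nuclear receptor and the *Oxt* promoter is known as a target of several of them. Capitals mark the letters TGACCT and their reverse complement AGGTCA, a half-site of nuclear receptors, searched on both strands. The sequences are those of RefSeq for GRCm38.p6, *Oxt* at chr2:130575919-130576168 on the plus strand and *Avp* at chr2:130582589-130582838 on the minus strand, both written 5′ to 3′ on the gene's own strand.
Oxt promoter: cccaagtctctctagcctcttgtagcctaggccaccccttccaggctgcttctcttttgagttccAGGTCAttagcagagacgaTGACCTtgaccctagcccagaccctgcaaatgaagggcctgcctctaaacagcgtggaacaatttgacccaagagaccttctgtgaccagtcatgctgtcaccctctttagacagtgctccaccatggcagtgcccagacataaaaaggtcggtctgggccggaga
Avp promoter: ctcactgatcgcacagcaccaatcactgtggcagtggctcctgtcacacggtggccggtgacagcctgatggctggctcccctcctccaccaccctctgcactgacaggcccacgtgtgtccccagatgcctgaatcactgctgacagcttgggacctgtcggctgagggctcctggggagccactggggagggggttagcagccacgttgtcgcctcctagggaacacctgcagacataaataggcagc
The *Oxt* window held 2 matches, AGGTCA at 185 bases and TGACCT at 166 bases before the start, and the *Avp* window held 0. Among 32851 mouse promoters of the same length, 14.02% held at least 1 match and 1.36% held 2 or more. Receptor binding was not measured in these samples.

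The values that chose the cells are given as a description. *Avp* plus *Oxt* took a median of 11.3% of the UMIs of an Avp/Oxt neuron (5.12% to 47.1%), 10.1% in Avp-led and 20.7% in Oxt-led cells. Avp-led neurons had a median of 367 *Avp* UMIs (27 to 3158) and 2 *Oxt* UMIs (0 to 214). Oxt-led neurons had a median of 228.5 *Oxt* UMIs (16 to 2179) and 53.5 *Avp* UMIs (3 to 595). Together the 137 cells held 73.4% of all *Avp* UMIs and 66.7% of all *Oxt* UMIs in the cells kept. The threshold fell within a continuum. The cells just inside it were at 5.12%, 5.12% and 5.16% and those just outside at 4.94%, 4.90% and 4.88%, and 18 Avp/Oxt neurons lay from 5% to 6% while 23 neurons with at least 20 UMIs lay from 4% to 5%. At 2% and 10 UMIs the rule would have taken 223 neurons, and at 10% and 40 UMIs 77.

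Co-detection of both peptides was unequal between the groups of cells. All 30 Oxt-led neurons had *Avp* UMIs, with *Avp* at a median of 17.6% of the *Avp* plus *Oxt* UMIs (5.22% to 34.2%). Of 107 Avp-led neurons, 31 had 0 *Oxt* UMIs, 89 had *Oxt* at 1% or less of the sum, 12 from 1% to 10% and 6 above 10%. A single cell of the 137 had *Oxt* between 40% and 60% of the sum. Across the 30 Oxt-led cells the log10 UMI numbers of both genes had a Pearson's r of 0.95, and across the 76 Avp-led cells with UMIs of both 0.30. Dividing by the UMIs of the cell left r at 0.77 and 0.20. These are descriptions, since cells share libraries and depth. Among non-neuronal cells, which include 31 that met the *Avp* plus *Oxt* thresholds, 3.92% had an *Avp* UMI and 3.53% an *Oxt* UMI at a median depth of 605 UMIs, with means of 0.109 and 0.0575 UMIs per cell. The share of *Avp* in Oxt-led cells stood beside the 127 nt that both messages share, and the part of that stretch in it was not tested.

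**Figure D1:**
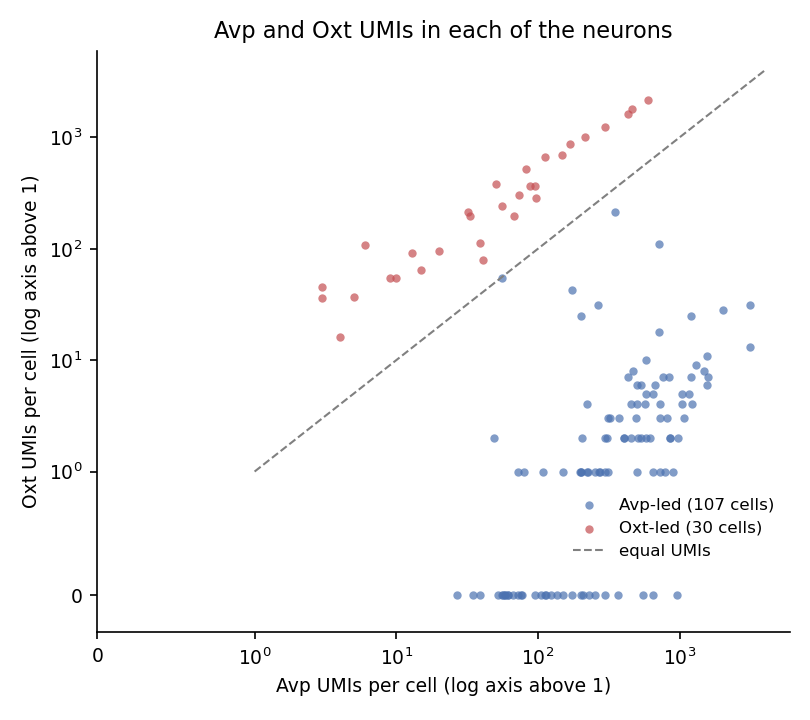
*Avp* UMIs (x axis) against *Oxt* UMIs (y axis) in each of the 137 Avp/Oxt neurons, both on axes that are logarithmic above 1 UMI, with Avp-led cells in blue, Oxt-led cells in red and a dashed line of equal numbers. The 30 Oxt-led cells form a narrow band above the line, all with *Avp* UMIs, while most of the 107 Avp-led cells lie at 0 to 10 *Oxt* UMIs.

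Depth differed between the classes. Avp-led neurons had a median of 3723 UMIs, Oxt-led neurons 1506.5 and the other 9542 neurons 1718. Mitochondrial genes held a median of 2.76%, 4.65% and 4.26% of their UMIs. A share of cells with a UMI therefore compares cells of unequal depth, and the within-mouse levels below are CPM, the UMIs of a gene scaled to 1000000 UMIs of all genes other than *Avp* and *Oxt*, summed over the cells of a class in a mouse. Doublet scoring called 4 of the 137 cells doublets, and they were kept.

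Against the other neurons of the same mice, the Avp/Oxt neurons had higher levels of 4 of 8 regulators tested, of 1 prohormone convertase and of 19 of 30 genes for folding and exporting secreted proteins, and lower levels of GABA genes and of most other neuropeptides. Of 8781 genes tested in 11 mice, 1551 passed an adjusted p of 0.05 (17.7%), 384 of them higher (4.37%) and 1167 lower (13.3%; edgeR quasi-likelihood test with the mouse as a block and Benjamini-Hochberg adjustment). The median log2 fold change over all genes tested was -0.25, so values are to be read against that shift. On simulated data this test called unchanged genes, all of them as lower, more often than its threshold allows, so the 1167 lower genes can hold more false calls than the threshold allows. With cells under 5% mitochondrial UMIs, 326 genes were higher and 321 lower, and the cause was not tested. Without cells of shared barcodes, 1433 genes passed.

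Among the regulators, 4 of 8 genes tested were higher and 0 lower, against 4.37% and 13.3% of all genes, and their median log2 fold change was 1.72. *Otp*, a homeobox gene needed to form these neurons, was at 152 to 495 CPM (median 280) in the Avp/Oxt neurons of the 11 mice and at 14.9 to 36.1 CPM (median 27.0) in the other neurons. *Sim1*, a basic helix-loop-helix factor of the paraventricular and supraoptic nuclei, was at 141 to 503 CPM (median 231) against 8.32 to 33.4 (median 16.7). *Pou3f2*, a POU factor that acts downstream of *Sim1*, was at 271 to 589.5 CPM (median 375) against 20.9 to 54.9 (median 29.8). *Caprin2*, an RNA-binding protein that binds vasopressin mRNA, was at 78.6 to 748 CPM (median 231) against 20.8 to 43.1 (median 32.2). For each of these 4 genes the lowest mouse in the Avp/Oxt neurons lay above the highest in the other neurons. How many of all genes tested had ranges that lay apart was not counted, here and for the genes below. The log2 fold changes were 3.35 (SE 0.23, adjusted p = 1.89e-45) for *Otp*, 3.87 (SE 0.24, adjusted p = 5.51e-55) for *Sim1*, 3.64 (SE 0.21, adjusted p = 2.63e-65) for *Pou3f2* and 2.86 (SE 0.24, adjusted p = 2.74e-31) for *Caprin2*, by edgeR. *Arnt2* (0.42), the partner of *Sim1*, *Nhlh2* (0.57), *Peg3* (-0.32) and *Foxp1* (-0.66) did not pass. *Creb3l1*, an activator of *Avp* transcription, was too low to test, with 6 UMIs in 6 cells, and *Sim2* had 1 UMI.

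**Figure D2:**
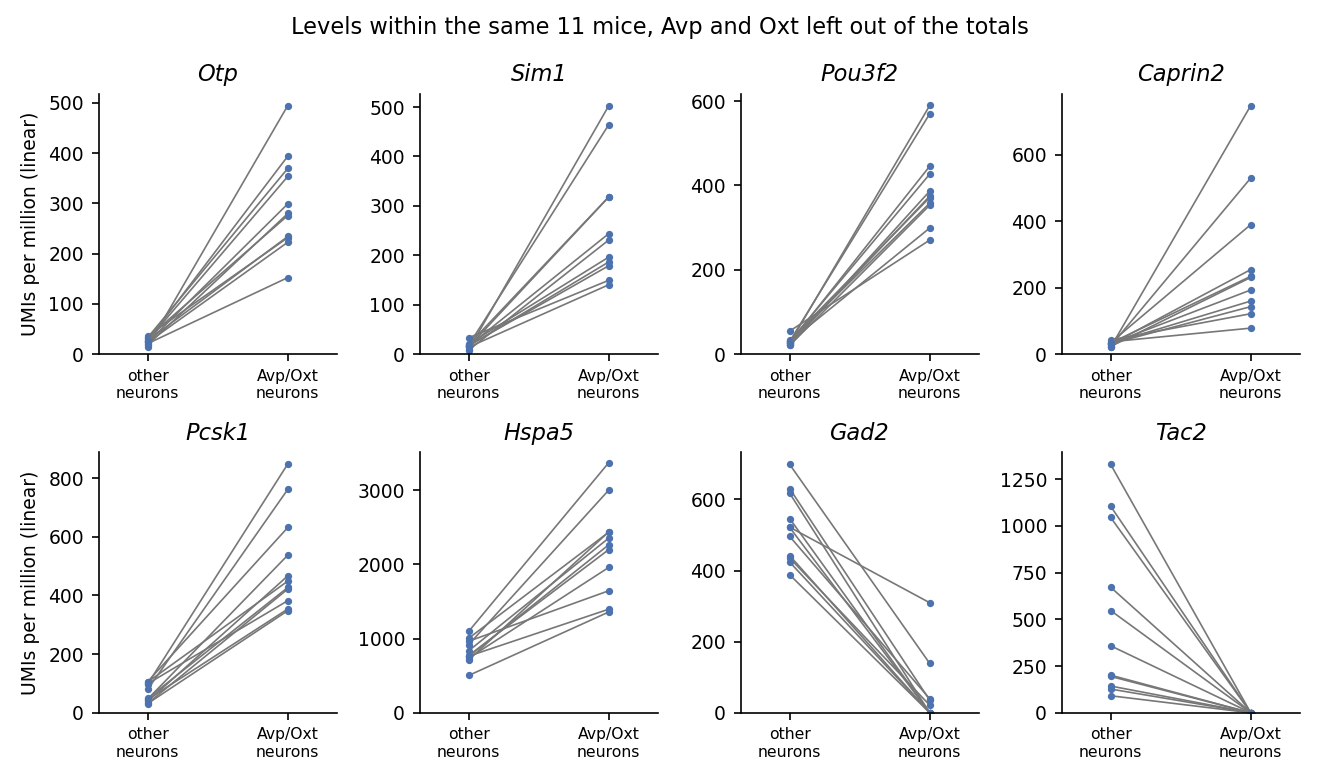
Levels of 8 genes in CPM (y axis, linear and from 0, with *Avp* and *Oxt* left out of the totals) in the other neurons and in the Avp/Oxt neurons of the same mouse, each line joining 1 of 11 mice. *Otp*, *Sim1*, *Pou3f2*, *Caprin2*, *Pcsk1* and *Hspa5* rise in every mouse, *Gad2* falls in every mouse, and *Tac2* is at 0 in the Avp/Oxt neurons of all 11.

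The genes with the largest rises held several outside the lists. By the naming rule (at least 100 CPM in the higher class and the same direction in all 11 mice), *Zbtb49*, a zinc finger gene, led with a log2 fold change of 4.06 (SE 0.26), followed by *Fkbp11*, a peptidyl-prolyl isomerase of the endoplasmic reticulum (4.01, SE 0.24), *Sim1*, *Nog*, an antagonist of bone morphogenetic proteins (3.78, SE 0.27), *Pou3f2* and *Angpt1*, the ligand of the receptor Tie2 (3.56, SE 0.21). The next were *Otp*, *Fam46a* (3.08, SE 0.18), *Caprin2*, *Pcsk1*, *Tmem178* (2.76, SE 0.31) and *Kcnmb4*, a subunit of large-conductance potassium channels (2.69, SE 0.31). *Fkbp11* was at 141 to 446 CPM (median 299) against 11.9 to 22.6 (median 14.2), and *Angpt1* at 107 to 616 CPM (median 424) against 14.4 to 41.1 (median 30.6). The ranges of the classes did not overlap for these 2 genes.

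Peptide processing genes were mixed, with 6 of 21 higher, 2 lower and 13 not past the threshold (median log2 fold change 0.14), against 4.37% of all genes higher and 13.3% lower. *Pcsk1*, the prohormone convertase PC1/3, was at 348 to 848 CPM (median 449) in the Avp/Oxt neurons and at 31.4 to 106 CPM (median 48.9) in the other neurons, which gave a log2 fold change of 2.83 with an SE of 0.18 (adjusted p = 1.06e-54 by edgeR). *Resp18*, a secretory granule protein, was at 2579 to 3574 CPM against 935 to 1644 (log2 fold change 1.19, SE 0.10). Both ranges lay apart in all 11 mice. *Ptprn* (0.68), *Scg3* (0.64), *Pcsk1n* (0.51), an inhibitor of PC1/3, and *Scg5* (0.43), the chaperone of PC2, rose by less. *Scg2*, a granin and the most abundant gene of this list in other neurons, fell by 1.40 (SE 0.12), from a median of 2662 CPM (1953 to 3091) to 904 (0 to 3634), and was lower in 10 of 11 mice. *Chga* (-0.78) was the other lower gene. Summed over its 21 genes, the list was at 15144 CPM in the 137 cells, 11275 CPM in all other neurons and 22661 CPM in the 34 other peptide-rich neurons described further on. The enzymes *Pcsk2* (0.17), *Cpe* (0.23), *Pam* (0.12) and *Qpct* (0.14), the granins and vesicle proteins *Chgb* (0.05), *Vgf* (-0.13) and *Ptprn2* (0.10), and the release genes *Cadps* (-0.22), *Cadps2* (0.40), *Rab3a* (0.15), *Rab3b* (-0.65), *Rab27b* (-0.49) and *Syt4* (0.11) did not pass.

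Genes of the endoplasmic reticulum, where precursors fold and enter the secretory path, were higher in 19 of 30 cases tested and lower in 0, against 4.37% and 13.3% of all genes, and 11 did not pass (median log2 fold change 0.86). *Hspa5*, the chaperone BiP, was at 1359 to 3373 CPM (median 2266) against 503 to 1097 (median 772), with a log2 fold change of 1.25 (SE 0.11). *Hsp90b1* (0.98), *Canx* (0.96) and the disulfide isomerases *P4hb* (1.34), *Pdia3* (1.06) and *Pdia6* (1.06) were higher as well. *Sdf2l1* (2.19) and *Ssr4* (2.06), a subunit of the translocon-associated complex, had the largest log2 fold changes of this list, which does not hold *Fkbp11*, and *Ssr4* was at 464 to 933 CPM against 133 to 209. The translocon subunit *Sec61b* (1.38), the signal peptidase subunit *Sec11c* (1.19), the stress-induced factor *Manf* (1.42) and the transcription factor *Xbp1* (0.84) were also higher. The list was at 14998 CPM in Avp-led, 11909 CPM in Oxt-led and 6467 CPM in other neurons, summed over its 32 genes, and at 9363 CPM in the other peptide-rich neurons. Against the latter 0 of 7 of its genes tested were higher, beside 2 of all 257 genes tested (0.778%). At so low a share this count says nothing particular of the list.

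Of the other neuropeptides, 3 of 13 tested genes were higher and 10 lower, against 4.37% and 13.3% of all genes. *Pdyn*, the dynorphin precursor, was at 70.7 to 549 CPM (median 187) against 28.5 to 96.1 (median 64.3), a log2 fold change of 1.88 (SE 0.22) with 10 of 11 mice higher. *Tac1*, the substance P precursor, was at 0 to 904 CPM (median 382) against 36.7 to 223 (median 118; log2 fold change 1.71, SE 0.17). *Nucb2*, the nesfatin-1 precursor, was at 149.6 to 422 CPM (median 271) against 66.0 to 111 (median 83.8; log2 fold change 1.54, SE 0.20), with no overlap. *Gal* was found in 39.4% of the Avp/Oxt neurons and 12.2% of the others, which were shallower, yet its level was lower (log2 fold change -0.72, SE 0.15, lower in 9 of 11 mice). *Cartpt* fell by 5.31, to 6 UMIs, and *Sst* by 2.37, where 34 of its 36 UMIs in the 137 cells came from a single Oxt-led cell. *Tac2*, *Npy*, *Penk*, *Cck*, *Nts* and *Vip* had 0 UMIs in the Avp/Oxt neurons. With the floor of 3 UMIs over the 11 mice (7.21 CPM) they were at least 76.6-fold, 29.1-fold, 23.2-fold, 20.6-fold, 16.6-fold and 10.4-fold lower than in other neurons, where they stood at 553, 210, 167, 149, 119 and 75.2 CPM. *Tac2* is not among the 13 genes and is counted further on with the markers of other hypothalamic neurons. *Adcyap1* and *Pnoc*, with 1 UMI each, were 21.1-fold (3.77 to 833) and 20.7-fold (3.71 to 819) lower, with exact 95% intervals that cover counting error only. The median log2 fold change of the 13 genes was -4.48, and -4.05 with the genes at 0 put at their bounds. *Crh*, which was too low to test, had 32 UMIs, all in 1 Avp-led cell, and *Trh* had 0.

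The other genes that the naming rule put lowest had 1 or 2 UMIs each in the Avp/Oxt neurons. *Nrgn*, a calmodulin-binding protein of forebrain neurons, was 52.5-fold lower (9.42 to 2076; 1 UMI), *Cyr61* 44.7-fold (8.004 to 1765; 1 UMI), *Mgp* 34.4-fold (9.52 to 284; 2 UMIs), *Nrp1*, a semaphorin and VEGF receptor, 23.8-fold (6.58 to 197; 2 UMIs), *Tm4sf1* 21.9-fold (6.06 to 181; 2 UMIs) and *Nfix* 20.2-fold (5.59 to 167; 2 UMIs). All 6 were lower in 11 of 11 mice.

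Of the transmitter genes, 1 of 8 tested was higher (*Th*) and 5 were lower, against 4.37% and 13.3% of all genes. *Gad2*, a GABA-synthesizing enzyme, was at 0 to 309 CPM (median 0) in the Avp/Oxt neurons and 388 to 698 CPM (median 521) in the other neurons (log2 fold change -3.64, SE 0.25), with no overlap. *Gad1* (-2.29), the vesicular GABA transporter *Slc32a1* (-3.67) and *Ddc* (-2.98) were lower too, and *Slc18a2*, with 0 UMIs in the Avp/Oxt neurons of the 11 mice tested and 2 in all 137 cells, was at least 10.6-fold lower in those 11 mice. *Slc17a6*, the vesicular glutamate transporter VGLUT2, did not differ past the threshold (log2 fold change -0.10, SE 0.20) and was at 46.9 to 366 CPM against 118 to 264. It was found in 43 of 107 Avp-led and 9 of 30 Oxt-led cells, and a UMI of *Gad1*, *Gad2* or *Slc32a1* in 20 and 2, with both kinds in 4 and 0. In the other neurons these shares were 17.96% and 43.1%. *Th*, tyrosine hydroxylase, was higher (1.33, SE 0.30, higher in 8 of 11 mice), a call lost with DESeq2 (log2 fold change 1.05, adjusted p = 0.073). *Nos1*, neuronal nitric oxide synthase, did not pass (0.83, SE 0.33), and 28 of its 45 UMIs lay in the 30 Oxt-led cells.

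Of 10 genes tested from the list of receptors, 1 was higher and 3 were lower, against 4.37% and 13.3% of all genes, and 6 did not pass. The higher one, *Calb1* (0.85, SE 0.15), codes for the calcium-binding protein calbindin and is no receptor. *Prlr*, the prolactin receptor (-2.84), and *Nr3c1*, the glucocorticoid receptor (-2.13), were among the lower ones. *Esr1* (-0.88), *Nr3c2* (-0.37), *Glp1r* (0.45), *Oprk1* (-0.46), *Trpv2* (0.55) and *Calcr* (-1.33) did not pass. *Esr1* had 18 UMIs in 15 of the 137 cells (10.9%), against 8.58% of other neurons and 2.93% of non-neuronal cells, which were shallower. *Esr2* was found in 5 cells, *Pgr* in 3, *Oxtr* in 2 and *Avpr1a* in 5. The relaxin family receptors *Rxfp3* and *Rxfp1* were too low to test but were found in 16.8% and 19.7% of the Avp/Oxt neurons against 0.776% and 1.55% of other neurons.

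Channel and calcium genes had 3 of 20 higher and 8 lower, against 4.37% and 13.3% of all genes, with a median log2 fold change of -0.47. *Kcnmb4*, *Cacna2d1*, a calcium channel subunit (0.80), and *Atp1b1*, a sodium pump subunit (0.58), were the higher ones. *Calb2*, calretinin (-3.62), and *Scn2a1* (-1.03) were among the lower ones. Immediate early genes, which dissociation can induce, had 12 of 18 lower and 1 higher, against 13.3% and 4.37% of all genes. *Fosl2* was higher (2.01, SE 0.36), while *Egr1* (-0.97), *Junb* (-1.31), *Klf2* (-2.98) and *Fos* (-0.48) were lower. When both classes had to have at least 6 of the 8 neuronal genes, the values of *Fos* (0.66), *Junb* (0.32) and *Egr1* (0.05) turned positive.

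**Figure D3:**
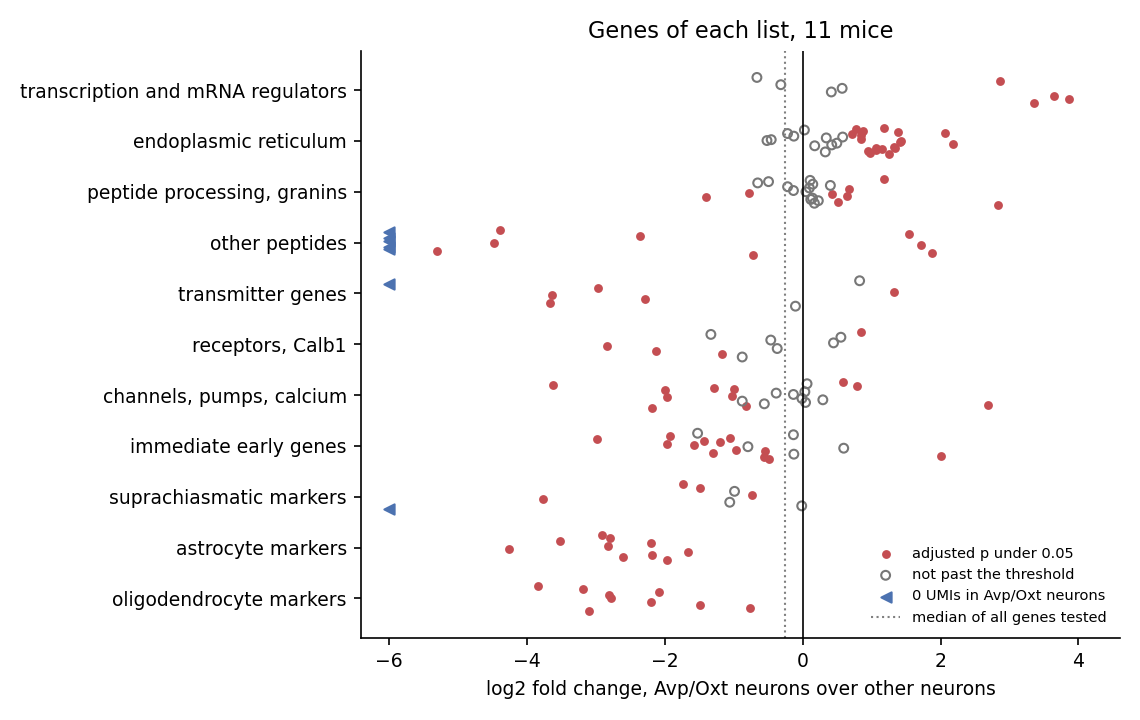
Log2 fold change of Avp/Oxt neurons over other neurons of the same 11 mice (x axis) for the tested genes of 11 lists (y axis), with filled red points for genes past an adjusted p of 0.05, open points for the rest, blue triangles at the left edge for genes with 0 UMIs in the Avp/Oxt neurons (no fold change) and a dotted line at the median of all genes tested, -0.25. The endoplasmic reticulum genes lie mostly to the right, and the astrocyte and oligodendrocyte markers lie wholly to the left.

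Markers of other cells were low in the Avp/Oxt neurons. All 10 astrocyte and 9 oligodendrocyte genes tested were lower, against 13.3% of all genes, as were 6 of 7 endothelial, 4 of 4 mural, 3 of 5 ependymal, 2 of 2 fibroblast, 2 of 2 oligodendrocyte precursor and 4 of 4 red cell genes. *Apoe*, the most abundant astrocyte gene, fell by 2.91 and *Hbb-bs* by 3.42, while *Mbp* fell by 0.76 and had a UMI in 59.1% of the Avp/Oxt neurons and 53.3% of the others. Summed, the 12 astrocyte markers were at 497 CPM in the 137 cells and 3049 CPM in the other neurons, and the 10 oligodendrocyte markers at 776 and 2667 CPM. The part of this difference in the genes called lower was not tested. Markers of other hypothalamic neurons were lower for 6 of 6 genes tested, against the same 13.3%, and *Pmch*, *Kiss1*, *Gnrh1* and *Foxb1* had 0 UMIs. Both pituitary genes tested were lower (13.3% of all genes), and *Prl*, *Gh* and *Tshb* had 0 UMIs. No microglial gene passed the filter on low counts. The 10 microglial markers summed to 136 CPM in the 137 cells and 206 CPM in the other neurons. They were at 82.4 CPM in Avp-led and 431 CPM in Oxt-led cells, with *Tmem119* at 0 in both.

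Vasopressin neurons of the suprachiasmatic nucleus could meet the rule on *Avp*. The rule left out cells with a *Vipr2* or *Prokr2* UMI, while the other neurons could hold suprachiasmatic cells, so lower markers of this nucleus are partly set by the choice of cells and are given as a description. Of 8 suprachiasmatic markers tested, 0 were higher and 5 lower (13.3% of all genes were lower), among them *Syt10* (-1.73), *Six3* (-1.49) and *Lhx1*, at 1 UMI. Summed, the 12 markers of this list were at 0 to 2474 CPM (median 173) in the Avp/Oxt neurons of the 11 mice and at 432 to 821 CPM (median 622) in the other neurons. The highest mouse was wild-type oil replicate 3, with 64 of these UMIs in 11 cells, and it alone lay above the range of the other neurons. *Vip* had 0 UMIs. A UMI of *Vip*, *Nms*, *Prok2*, *Rgs16*, *Six6* or *Lhx1* was found in 16 of 107 Avp-led cells and in 0 of 30 Oxt-led cells, against 18.5% of other neurons. A UMI of *Otp*, *Sim1*, *Pou3f2* or *Caprin2*, the 4 regulators that were called higher in these cells and so no independent check, was found in 81 Avp-led and 13 Oxt-led cells, against 14.3% of other neurons, which were shallower than Avp-led cells (medians of 1718 and 3723 UMIs). There were 9 Avp-led cells with a suprachiasmatic gene and none of these 4 regulators. A further 17 Avp-led and 17 Oxt-led cells had UMIs of neither group of genes. At the lower limit of 2% and 10 UMIs, *Syt10* (0.04) and *Six3* (0.57) were no longer lower.

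The Avp/Oxt neurons were also set against 34 other peptide-rich neurons, in which 1 of 24 other peptide genes held at least 5% of UMIs and at least 20 UMIs, in the 8 mice with 2 or more of both classes. The 24 peptide genes were not tested here and were left out of the totals with *Avp* and *Oxt*. The CPM of this paragraph are thus on another scale than the sums of lists above. Only 257 genes were deep enough to test, and 6 passed (2.33%), 2 of them higher (0.778%) and 4 lower (1.56%). *Cadm1*, a synaptic adhesion protein, was higher (log2 fold change 2.33, SE 0.34, 7 of 8 mice), at a mean of 1312 ± 200 CPM (SD, n = 8) against 406 ± 516, and *Tmsb4x*, thymosin beta 4, was higher in all 8 mice (1.18, SE 0.25). *Gap43*, a growth cone protein, was lower in all 8 mice, at 316 ± 158 CPM against 1879 ± 687 (-2.61, SE 0.28, adjusted p = 3.14e-09). *Scg2* (-2.21, lower in 7 of 8 mice), *Sub1* (-1.23) and *Tcf25* (-0.98) were the other lower genes. *Scg2* was thus lower than in both sets of neurons. These comparisons are not independent, since the peptide-rich neurons are part of the other neurons and the Avp/Oxt neurons are shared. *Resp18*, higher than in other neurons at large, was at 3162 ± 387 CPM against 6056 ± 4702 in peptide-rich neurons and did not pass (-0.65, adjusted p = 0.18, lower in 7 of 8 mice). Of the processing list 0 of 10 genes tested were higher and 1 lower, against 0.778% and 1.56% of all 257 genes. Of the endoplasmic reticulum list 0 of 7 were higher and 0 lower (median 0.51), against the same shares. The call of *Tcf25* was lost in 6 of 8 fits with 1 mouse left out, and that of *Sub1* in 1.

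Between Oxt-led and Avp-led neurons no gene other than those of the rule passed the test, with 0 of 152 genes called (0%) in the 4 mice that had at least 3 cells of each kind (wild-type oil replicate 3, wild-type tamoxifen replicates 2 and 4, *Esr1* cKO oil replicate 3). Without adjustment, edgeR gave 9 genes with p under 0.05. The lowest p belonged to *Kcnip4*, a potassium channel partner, at 345 ± 309 CPM in Oxt-led and 1174 ± 760 CPM in Avp-led cells (SD, n = 4; log2 fold change -1.69, SE 0.45, adjusted p = 0.37). *Tmsb4x* (-1.23) and *Scg2* (-1.72) followed, and all 3 were lower in Oxt-led cells of all 4 mice. These 3 were chosen after their values were seen. In the Oxt-led cells of the 4 mice they had 15, 48 and 13 UMIs in all. With so few UMIs, the count of 0 genes does not show that both kinds of cells were alike. Other fits of this comparison called from 0 to 3 genes, with 3 at 2% and 10 UMIs and 2 at 10% and 40 UMIs. As values without a test, *Pdyn* was found in 51.4% of Avp-led and 23.3% of Oxt-led cells, *Tac1* in 37.4% and 3.33%, *Caprin2* in 45.8% and 13.3%, *Otp* in 61 of 107 and 9 of 30 cells, *Nos1* in 13.1% and 33.3% and *Rxfp1* in 23.4% and 6.67%. *Resp18* was found in 96 of 107 and 27 of 30 cells. Oxt-led cells were shallower than Avp-led cells, and the part of depth in any of these shares was not tested.

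The number of Avp/Oxt neurons was compared between treatments and genotypes as a percent of the neurons of each mouse. Fewer cells of a type and less of their defining mRNA per cell cannot be told apart, because the rule reads both. Wild-type oil mice were at 0.570%, 0.518% and 2.17%, and wild-type tamoxifen mice at 1.22%, 3.26%, 0.638%, 1.74% and 1.09%. *Esr1* cKO oil mice were at 0.842%, 0.973%, 0.966% and 2.10%, and *Esr1* cKO tamoxifen mice at 1.71%, 1.61%, 1.84% and 1.23%. All 4 groups overlapped, and the highest wild-type oil mouse was 1 of the 2 libraries that stand apart. The means were 1.09% ± 0.939 (SD, n = 3), 1.59% ± 1.01 (n = 5), 1.22% ± 0.590 (n = 4) and 1.60% ± 0.259 (n = 4). Exact 95% binomial intervals of single mice, which cover counting error only, ran from 0.0691% to 2.04% in wild-type oil replicate 1 (2 of 351 neurons) and from 1.97% to 5.04% in wild-type tamoxifen replicate 2 (19 of 583). Tamoxifen less oil was 0.504 percentage points in wild-type mice (p = 0.50) and 0.378 in *Esr1* cKO mice (p = 0.31), and *Esr1* cKO less wild-type was 0.135 under oil (p = 0.69) and 0.00822 under tamoxifen (p = 0.94), by exact 2-sided permutation tests over mice. With 1 mouse left out, the tamoxifen difference in wild-type mice ranged from 0.0869 (without wild-type tamoxifen replicate 2) to 1.05 (without wild-type oil replicate 3), and that in *Esr1* cKO mice from 0.251 to 0.671. The genotype differences turned sign, ranging from -0.159 to 0.677 under oil and from -0.23 to 0.425 under tamoxifen. Adjusted over the 4 contrasts, p was 0.914 for the first 3 and 0.937 for the last, and the smallest p these designs allow was 0.036, 0.029, 0.057 and 0.016.

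**Figure D4:**
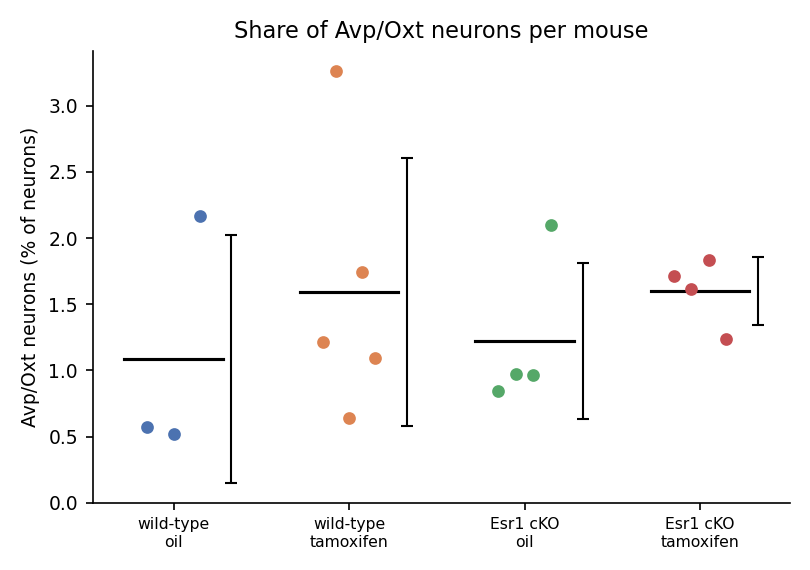
Avp/Oxt neurons as a percent of the neurons of each mouse (y axis, from 0) in the 4 groups (x axis), with 1 point per mouse, a bar at the mean and an error bar of 1 SD. The groups overlap, and 3 mice lie above 2%.

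The Oxt-led share of the Avp/Oxt neurons had few cells behind it. Among mice with at least 5 Avp/Oxt neurons it was 27.3% in the wild-type oil mouse, 18.2%, 15.8%, 50% and 33.3% in wild-type tamoxifen mice, 16.7%, 50% and 0% in *Esr1* cKO oil mice and 8.33%, 6.67% and 33.3% in *Esr1* cKO tamoxifen mice. *Esr1* cKO oil replicate 4 had 0 Oxt-led cells of 12. Every group that had more than 1 mouse ranged widely, and the ranges overlapped. At the main thresholds the largest difference was that of *Esr1* cKO and wild-type mice under tamoxifen, with means of 16.1% and 29.3% (-13.2 percentage points, exact 2-sided permutation p = 0.34, adjusted p = 1). At 10% and 40 UMIs tamoxifen in *Esr1* cKO mice (-43.0) and genotype under oil (46.7) differed by more. The smallest p possible was 0.4, 0.1, 0.5 and 0.057 for the 4 contrasts, so that none but the last could have come near 0.05.

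*Esr1* itself was read in each group. Over all neurons it stood at 91.3, 50.4 and 33.7 CPM, here over all UMIs of the neurons, in wild-type oil mice, at 76.1, 60.8, 58.6, 55.8 and 63.7 in wild-type tamoxifen mice, at 45.9, 51.3, 42.2 and 41.0 in *Esr1* cKO oil mice and at 46.3, 63.8, 14.9 and 66.6 in *Esr1* cKO tamoxifen mice. All 5 wild-type tamoxifen mice lay above all 4 *Esr1* cKO oil mice, which differ in both genotype and treatment, and every other pair of groups overlapped. Drop-seq reads the 3′ end of a message, so UMIs of *Esr1* need not fall in the floxed exon, and the level alone does not show the deletion. Where these UMIs fall was not tested. In the Avp/Oxt neurons *Esr1* had 1, 8, 2 and 7 UMIs in the wild-type oil, wild-type tamoxifen, *Esr1* cKO oil and *Esr1* cKO tamoxifen mice. *Nkx2-1*, whose promoter drives the Cre, had a UMI in 0 of the 137 cells and in 5.74% of other neurons. Over the 11 mice tested, with the floor of 3 UMIs, its summed level was at least 4.41-fold lower than the 31.8 CPM of other neurons. The share of Avp/Oxt neurons that express it at a low level was not tested. Whether these cells had expressed it earlier was not measured.

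Tamoxifen and genotype were then compared over genes within the Avp/Oxt neurons. Of 1098 genes tested in 11 mice, 0 (0%) passed in edgeR for any of 4 contrasts, namely the effect of tamoxifen in each genotype and the effect of the genotype under each treatment. Without adjustment, 106, 47, 130 and 54 genes had p under 0.05 in these 4 contrasts, and DESeq2 called 0, 0, 3 and 0 after adjustment. Tamoxifen in wild-type mice and genotype under oil both rest on 1 wild-type oil mouse, replicate 3, which stands apart and is assumed to vary like the other groups. Without *Esr1* cKO tamoxifen replicate 3, the other library that stands apart, 48 and 44 genes passed in these 2 contrasts, so the counts of 0 do not show that genes did not differ. The difference of the tamoxifen response between genotypes was called for 6 genes (0.546%). With only 1 wild-type oil mouse these calls rest on that library, which stands apart. All were lost with library numbers in successive fours as a replicate block. With all 16 libraries 0 of 786 genes were called for any contrast.
The 6 genes are given by mouse. *Rgs16*, a regulator of G protein signaling and a suprachiasmatic marker, had 21 UMIs in 3 cells of wild-type oil replicate 3 (812 CPM), 9 UMIs in *Esr1* cKO tamoxifen replicate 3, 3 in *Esr1* cKO tamoxifen replicate 1, 1 in wild-type tamoxifen replicate 2 and 0 in the other 7 mice. *Igfbp5*, an insulin-like growth factor binding protein, had 18 UMIs in 2 cells of the wild-type oil mouse (696 CPM) and at most 246 CPM elsewhere. *Scg2* was at 3634 CPM in the wild-type oil mouse, 2926 CPM in *Esr1* cKO tamoxifen replicate 3 and at most 1634 CPM in the other 9. *Traf5*, an adaptor of tumor necrosis factor receptors, had 0 UMIs in the 2 libraries that stand apart and 299 to 1027 CPM in the other 9. A gene that these 2 libraries did not list would also count as 0. *Psmd13*, a proteasome subunit, had 0 UMIs in the wild-type oil mouse, 92.4 CPM in *Esr1* cKO tamoxifen replicate 3 and 318 to 707 CPM in the other 9. *Canx* was at 657 CPM in the wild-type oil mouse and 1720 to 2618 CPM in the others. For all of these genes but *Canx*, the 2 libraries that stand apart were both above or both below the other 9 mice.

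*Avp* and *Oxt* were last taken over all neurons of each of the 16 mice, where no threshold on them applies. *Avp* was at 1852, 1318 and 3852 CPM of all neuronal UMIs in wild-type oil mice, 2283, 12815, 1978, 3045 and 1481 in wild-type tamoxifen mice, 2157, 3136, 1646.5 and 4024 in *Esr1* cKO oil mice and 6449, 7521, 3575 and 2906 in *Esr1* cKO tamoxifen mice. The groups overlapped, and 1 wild-type tamoxifen mouse held the highest value. *Oxt* was at 25.5, 219.9 and 195 CPM in wild-type oil mice, 295, 2016, 107, 1315 and 1867 in wild-type tamoxifen mice, 1013, 1945, 1115 and 58.8 in *Esr1* cKO oil mice and 2914, 191, 139 and 1018 in *Esr1* cKO tamoxifen mice. All 3 wild-type oil mice were low for *Oxt*, yet every other group held 1 or more mice in their range. The tamoxifen effect in wild-type mice was 2.91 on the log2 scale for *Oxt* (SE 1.20, adjusted p over all genes = 0.999 by edgeR) and 0.87 for *Avp* (SE 0.62). The value of *Avp* turned negative without the wild-type tamoxifen mouse at 12815 CPM. Under oil *Oxt* was higher in *Esr1* cKO than in wild-type mice by 2.82 (SE 1.22, adjusted p = 0.895 by edgeR). In *Esr1* cKO mice the tamoxifen effect was 0.03 for *Oxt* (SE 1.004) and 0.87 for *Avp* (SE 0.59), and neither passed the threshold. The comparisons within each genotype and treatment share these groups.

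**Figure D5:**
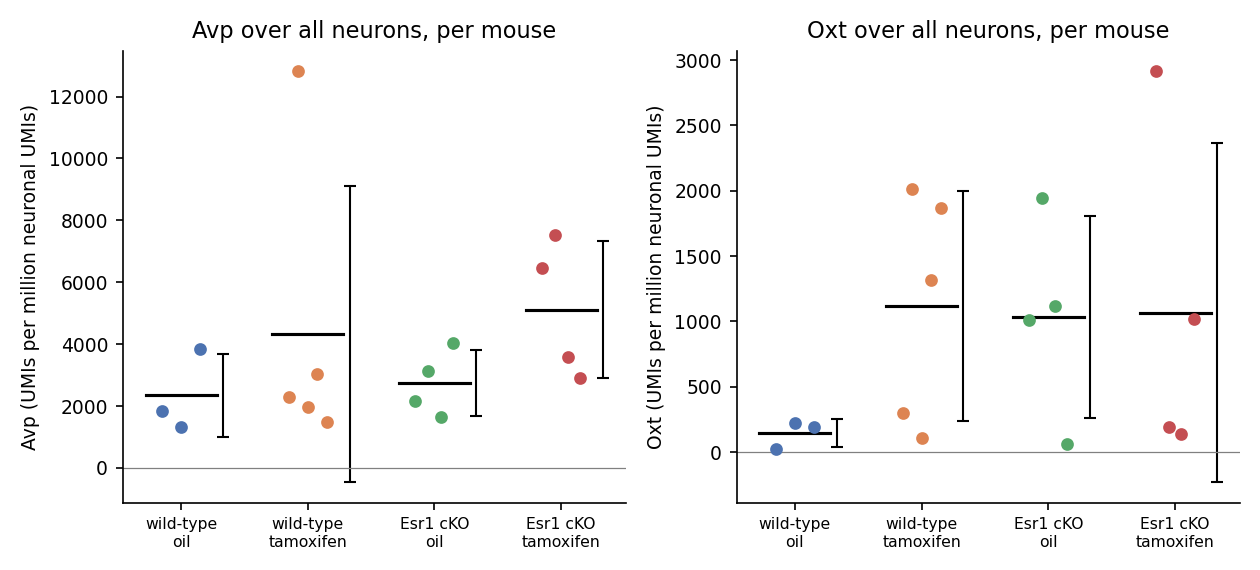
*Avp* (left) and *Oxt* (right) in CPM of all neuronal UMIs of each mouse (y axes, linear) in the 4 groups (x axis), with 1 point per mouse, a bar at the mean and an error bar of 1 SD, which can run below 0. The 3 wild-type oil mice lie at the bottom for *Oxt*, where at least 1 mouse of every other group also lies.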

How the data were processed

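The authors deposited 1 matrix of raw UMI counts per gene and barcode for each of the 16 Drop-seq libraries, made from papain-dissociated hypothalamus-POA. The submitters' processing notes name STAR 2.6 and mm10. The values are counts with no normalization, and the libraries held 2634250 to 8038160 UMIs, so that intervals and floors cover counting error only.

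Barcodes with 201 to 3999 genes and under 15% mitochondrial UMIs were kept, close to the filter of the study's methods. Neurons and Avp/Oxt neurons were then chosen as described. The members and the gene lists were chosen with earlier results of these data known. Doublets were scored with Scrublet (scanpy 1.11.5, 5% expected), which called 476 cells (0.855%), and they were removed only in an alternative.

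UMIs were summed per library and class and tested with edgeR 4.0.16 in R 4.3.3 (quasi-likelihood F-test, TMM, filterByExpr, Benjamini-Hochberg adjustment, threshold 0.05). The mouse was a block within mice, and the 4 groups shared a fit otherwise. *Avp* and *Oxt* were left out of library sizes, and the genes of the rule were dropped. The SE of a log2 fold change is its absolute value divided by the square root of the F statistic, and is not an SD over mice. Each library is 1 mouse. The comparison with peptide-rich neurons used mice with at least 2 cells of each class, set after seeing that at least 5 left a single mouse. Genes were named when past the threshold, with at least 100 CPM in the higher class and the same direction in every mouse, up to 12 per direction. Genes of the lists were then named by role, and the genes of the lists on regulators, processing, peptides, transmitters and receptors were given values where tested, except for an item that is counted but not reported here. Shares were compared by exact permutation over mice with scipy 1.17.1. On simulated data the test against other neurons called unchanged genes more often than its threshold allows, all of them as lower, so the lower calls as a whole are less certain than the higher ones.

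Alternatives were DESeq2 1.42.0, no filter on low counts, other thresholds, mitochondrial, depth and neuronal limits, doublet removal, a replicate block and each library left out. Those on shared barcodes, on the libraries that stand apart, on 6 neuronal genes and on all 16 libraries were added after seeing the data.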

Additional observations from a re-analysis of the deposited data

Results flagged for a closer look

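Samples that stood far from the rest of their group were sought in 11 sets of values of 4 or 5 mice, where chance flags about 1 in 20, and 2 were found. *Esr1* cKO oil replicate 4 had 2.10% of its neurons as Avp/Oxt neurons, while the nearest of the other 3 mice had 0.973%. Wild-type tamoxifen replicate 2 had an *Avp* level of 12815 CPM over all neurons, while the nearest of the other 4 mice was at 3045 CPM. It also held 19 Avp/Oxt neurons, the most of any mouse.

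The interaction term of edgeR called the tamoxifen response in Avp/Oxt neurons different between genotypes for the genes given by mouse above. None of these calls was kept with library numbers in successive fours as a replicate block, and 0 genes were called with all 16 libraries. The term is given here as *Esr1* cKO less wild-type on the log2 scale. It was 11.09 for *Rgs16*, 9.05 for *Igfbp5*, -8.55 for *Psmd13* and -2.11 for *Canx* (adjusted p = 0.042 for each). It was -9.80 for *Traf5* and 3.69 for *Scg2* (adjusted p = 0.045 for both). Values beyond 8 come from groups with 0 UMIs, depend on the prior count and are no measure of size. The wild-type oil group was a single mouse, a library that stands apart, so that this library and the group cannot be told apart.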

How the results depend on the processing

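The genes called between Avp/Oxt neurons and other neurons numbered 2542 with no filter on low counts, 953 at 10% and 40 UMIs and 647 under 5% mitochondrial UMIs, against 1551, and 1330 to 1557 with 1 library left out. Against peptide-rich neurons they numbered 11 with DESeq2, 117 with no filter and 3 at 2% and 10 UMIs, against 6 (5 to 10 with 1 library left out). Between Oxt-led and Avp-led neurons they numbered 3 with no filter, 2 at 10% and 40 UMIs, 3 at 2% and 10 UMIs, 1 under 5% mitochondrial UMIs, 1 with at least 1 cell of each kind and 1 without the libraries that stand apart, against 0 (0 to 1). The causes were not tested. For tamoxifen in wild-type mice the count was 20 with no filter and 12 under 5% mitochondrial UMIs, and for tamoxifen in *Esr1* cKO mice 3 with no filter and 1 at 10% and 40 UMIs. For genotype under oil it was 3 with DESeq2, 15 with no filter, 1 with *Avp* and *Oxt* kept in library sizes and 2 in Avp-led neurons, and for genotype under tamoxifen 4 with no filter, all against 0. With 1 library left out these 4 counts ranged from 0 to 48, 0 to 5, 0 to 44 and 0 to 8. The difference of the tamoxifen response between genotypes was called for 2 genes with DESeq2, 36 with no filter, 3 with *Avp* and *Oxt* kept, 3 without called doublets, 16 under 5% mitochondrial UMIs, 1 without cells of shared barcodes, 1 with their deepest copy, and 0 at 10% and 40 UMIs, at 2% and 10 UMIs, with all 16 libraries and with all but the 2 that stand apart, against 6 (0 to 46 with 1 library left out).

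Library numbers in successive fours were taken as a replicate block, since the labels give no day. With this block 0 genes were called in all 5 group contrasts, also with all 16 libraries, and *Oxt* over all neurons under tamoxifen in *Esr1* cKO mice turned to -0.12.

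Differences in shares that missed the threshold also turned sign. Genotype under oil became -0.149 percentage points of neurons without wild-type oil replicate 2 and -0.0358 at 2% and 10 UMIs. Genotype under tamoxifen became -0.0710 without the libraries that stand apart, -0.279 at 10% and 40 UMIs and -0.0247 without called doublets. With 1 library left out they ranged from -0.159 to 0.677 and from -0.23 to 0.425. The Oxt-led share for genotype under oil became 46.7 at 10% and 40 UMIs, 7.94 under 5% mitochondrial UMIs and 2.71 with all 16 libraries, and that for tamoxifen in wild-type mice -6.94 when one peptide had to hold at least 10 times the other. With 1 library left out the Oxt-led differences ranged from -18.9 to 6.06 for genotype under oil, from -17.2 to 7.78 for tamoxifen in *Esr1* cKO mice, from -4.84 to 6.57 for tamoxifen in wild-type mice and from -21.8 to -6.32 for genotype under tamoxifen. The last was -8.49 without the libraries that stand apart, -24.6 under 5% mitochondrial UMIs and -4.17 at the 10-fold split. That for tamoxifen in *Esr1* cKO mice was -43.0 at 10% and 40 UMIs and -24.6 under 5% mitochondrial UMIs. The tamoxifen difference in percent of neurons of *Esr1* cKO mice was 0.0031 under 5% mitochondrial UMIs. At that limit it was 0.657 in wild-type mice, and the genotype difference was 0.953 under oil and 0.299 under tamoxifen. Without cells of shared barcodes, genotype under tamoxifen was 0.0947 percentage points of neurons, genotype under oil 0.106 (0.0531 with the deepest copy), and the Oxt-led differences were -3.89 for tamoxifen in *Esr1* cKO mice and 3.495 in wild-type mice (0.718 with the deepest copy). Over all neurons, the tamoxifen effect on *Oxt* in *Esr1* cKO mice ranged from -1.204 to 0.54 and that on *Avp* in wild-type mice from -0.13 to 1.498, negative without wild-type tamoxifen replicate 2.

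Single genes turned sign between Avp/Oxt and other neurons as follows on the log2 scale. With no filter these were *Pcsk2* (-0.033), *Pam* (-0.086), *Qpct* (-0.059), *Chgb* (-0.15), *Ptprn2* (-0.102), *Rab3a* (-0.055), *Syt4* (-0.096). At 10% and 40 UMIs they were *Pcsk2* (-0.41), *Pam* (-0.025), *Qpct* (-0.26), *Chgb* (-0.296), *Ptprn2* (-0.13), *Cadps2* (-0.013), *Syt4* (-0.13), *Slc17a6* (0.14). At 2% and 10 UMIs they were *Vgf* (1.23), *Fos* (0.011), *Six3* (0.57), *Syt10* (0.038). With at least 6 neuronal genes they were *Pam* (-0.011), *Chgb* (-0.028), *Ptprn2* (-0.014), *Rab3a* (-0.018), *Syt4* (-0.12), *Fos* (0.66), *Junb* (0.32), *Egr1* (0.052). Under 5% mitochondrial UMIs *Slc17a6* turned to 0.084 and with at least 1000 UMIs per cell *Qpct* to -0.072. *Chgb* turned to -0.026 with *Avp* and *Oxt* kept in library sizes, -0.0043 without cells of shared barcodes and -0.022 with their deepest copy. Without the libraries that stand apart, *Pcsk2* turned to -0.025 and *Syt4* to -0.031. With 1 library left out, *Glp1r* ranged from -0.44 to 0.596, *Qpct* from -0.017 to 0.28, *Ptprn2* from -0.010 to 0.14, *Chgb* from -0.036 to 0.082, *Syt4* from -0.037 to 0.17 and *Vgf* from -0.403 to 0.011. *Otp*, *Sim1*, *Pou3f2*, *Caprin2* and *Pcsk1* kept their direction and their call under every alternative run. In the Oxt-led comparison 152 genes were deep enough to test, in 4 mice.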

Other observations

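The values here were picked after they were seen. The neuron with the most *Oxt* UMIs of the series, 3744 beside 967 *Avp* UMIs, was among the 6 left out for a *Vipr2* or *Prokr2* UMI. *P2ry12*, a purine receptor gene of microglia, had 23 of its 25 UMIs in 10 of the 30 Oxt-led neurons. It was found in 7.21% of non-neuronal cells and 1.39% of other neurons. The other microglial markers summed to few UMIs in Oxt-led cells, with *C1qc*, *Ctss*, *Tmem119* and *Aif1* at 0. A further 31 non-neuronal cells met the *Avp* plus *Oxt* thresholds at a median of 446 UMIs, and 14 of them had 2 of the 8 neuronal genes, 1 short of the limit.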
